A study of Mus musculus with 8 samples.

Results

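Peaks of ATAC-seq, an assay in which the transposase Tn5 cuts and tags accessible DNA, were examined at 10 genes of transforming growth factor beta (TGF-β) signaling in the mouse cerebral cortex. The genes were chosen by name: the ligands Tgfb1, Tgfb2 and Tgfb3, the receptors Tgfbr1 and Tgfbr2, the signal transducers Smad2 and Smad3, the inhibitor Smad7, and Nrros and Itgb8, whose products hold and activate the latent ligand. They are 10 of 21938 protein-coding genes and 10 of the 17035 whose locus carried enough peaks to be tested. Each gene was taken from its start to its end with 3 kb beyond both, together called its locus, and its covered length was the number of base pairs inside it that lay under peaks, scaled to the total length covered in each library. Covered length therefore counts how much of a locus was called as accessible and does not measure read depth.

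Cortex came from male C57BL/6 mice at 14 weeks of age, 3 weeks after surgery, with 4 sham-operated mice and 4 mice with bilateral carotid artery stenosis (BCAS). In BCAS, a microcoil is wound around each common carotid artery, which lowers blood flow to the brain for a long time. The coil was narrower on the right side, so the hemispheres of one mouse were not equally affected. The labels name the right cerebral cortex, whereas the quality table of the study names the cortex of the whole brain. Sham mice had surgery without the coils, and no transgene is named for either group.

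TGF-β is secreted bound to a latency peptide and must be released before it can signal. In the brain, the microglial protein NRROS tethers the latent ligand and the integrin β8 subunit takes part in its release. The free ligand binds TGFBR2, which recruits and phosphorylates TGFBR1, and the receptor complex phosphorylates SMAD2 and SMAD3 to enter the nucleus and bind DNA. SMAD7 is induced by the pathway and blocks the receptors. Microglia, the resident macrophages of the brain, depend on TGF-β for their identity and homeostatic state.

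The 8 libraries held 107391 to 160720 peaks on the chromosomes and covered 44.5 to 66.3 Mb. Neither the number of peaks (exact two-sided permutation p = 0.543) nor the covered length (p = 0.571 by the same test) separated the groups. With 4 mice against 4, the smallest two-sided p of that test is 0.0286. Across the 17035 tested genes, limma called 538 with more covered length in BCAS (3.16%) and 64 with less (0.376%) at an adjusted p under 0.05. The depth of reads behind a peak is unknown from peak lists, and the absence of a peak does not show closed chromatin.

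None of the 10 genes changed beyond the threshold on adjusted p. At an unadjusted p under 0.05, the loci of Tgfb1, Tgfbr2 and Smad3 were higher in BCAS and none was lower, where 10.6% of all tested genes were higher and 4.39% lower. Every BCAS library lay above every sham library at 2 of the 10 loci, Tgfb1 and Smad3, against 6.03% of all tested genes. No locus had every BCAS library below every sham library, against 2.47% of all. The fold change was above 0 at 7 of the 10 loci, and its median over the 10 was 0.10 on the log2 scale, compared with 0.0014 over all tested genes. By that median, at least as many of all tested genes lay above 0 as below it. Their exact share above 0 was not computed, which also limits such counts for the lists below. A library from bulk tissue cannot tell more cells of a type from more accessible chromatin per cell.

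**Figure D1:**
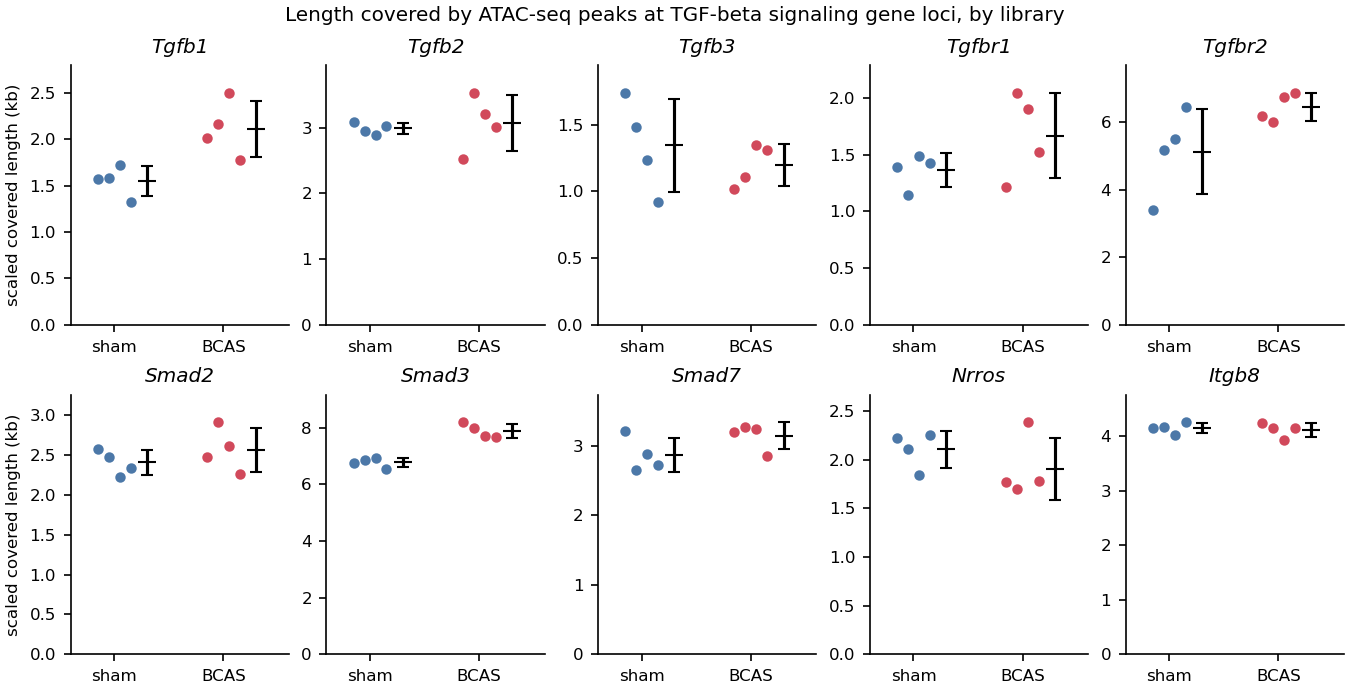
Scaled covered length in kb at each of the 10 loci, with 1 point per library (blue, sham; red, BCAS) and the mean ± SD of 4 libraries at the right of each group. The groups separate at Tgfb1 and Smad3, sham 1 sits lowest at Tgfbr2, and the groups overlap at the other loci.

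**Figure D2:**
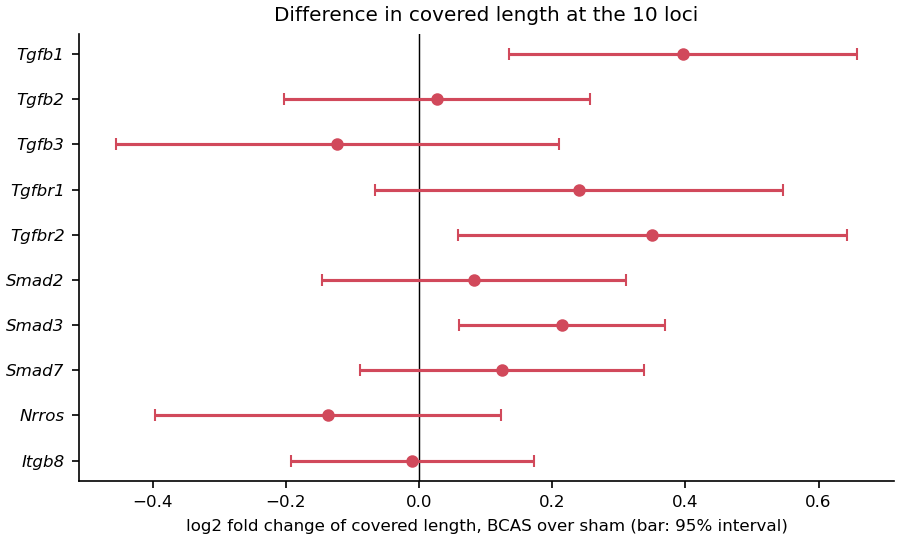
Log2 fold change of covered length in BCAS over sham at each locus, with its 95% interval from limma. The intervals of Tgfb1, Tgfbr2 and Smad3 lie above 0, and the other 7 include 0.

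Per length of locus, Smad7 had the largest share under peaks in sham cortex and Tgfbr1 the smallest. The covered share in sham was 8.34% ± 0.719 at Smad7, 7.30% ± 0.653 at Nrros, 6.44% ± 0.681 at Tgfb1 and 5.78% ± 0.141 at Smad3 (SD, n = 4 for each). It was 5.28% ± 1.3 at Tgfbr2, 4.78% ± 0.110 at Itgb8 and 4.75% ± 1.23 at Tgfb3. Tgfb2 with 3.35% ± 0.101, Smad2 with 3.19% ± 0.204 and Tgfbr1 with 2.01% ± 0.220 had the smallest shares. Between neighbours in this order the sham libraries overlapped, except that all 4 shares at Smad2 lay above all 4 at Tgfbr1. In BCAS, the share was 9.13% ± 0.566 at Smad7, 8.77% ± 1.25 at Tgfb1, 6.73% ± 0.208 at Smad3, 6.63% ± 0.431 at Tgfbr2 and 6.62% ± 1.11 at Nrros. It was 4.75% ± 0.152 at Itgb8, 4.23% ± 0.560 at Tgfb3, 3.44% ± 0.472 at Tgfb2, 3.41% ± 0.364 at Smad2 and 2.46% ± 0.553 at Tgfbr1. In BCAS, neighbours overlapped except Tgfb1 over Smad3 and Nrros over Itgb8, and no test was made between genes.

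All 10 genes had a peak within 1 kb of the transcription start site in every library. The height of that peak was expressed as a rank, the percentile of its fold enrichment among all peaks of its own library. The start sites of Tgfbr1, Smad3 and Itgb8 carried high peaks, with mean ranks in sham of 91.6 ± 1.89, 84.6 ± 0.698 and 82.3 ± 5.05. Those of Tgfb1, with 22.5 ± 15.9, and Smad7, with 27.2 ± 4.18, carried low ones. No rank passed the threshold on adjusted p in limma among the 10 genes, nor among all 12911 genes tested (0.0%), of which 1741 had an unadjusted p under 0.05. The largest difference in rank was at Smad7, which was 24.1, 31.5, 23.1 and 30.1 in the 4 sham mice, in order of their numbers, and 37.5, 39.5, 31.4 and 49.0 in the 4 BCAS mice. One BCAS library lay just under the highest sham library there (difference 12.2, SE 5.54, adjusted p = 0.375). At Tgfbr2, the rank was 73.2 ± 7.11 in sham and 81.5 ± 4.54 in BCAS (adjusted p = 0.415).

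The peaks of the 8 libraries were merged into 197916 regions, of which 116 lay at the 10 loci. Of these 116, 44 had a peak in every library, and 19 were found in a single library. Regions with a peak in more BCAS than sham libraries numbered 46 (39.7%), regions with equal numbers 56 (48.3%) and regions with more sham libraries 14 (12.1%). Over all merged regions, these shares were 30.4%, 46.4% and 23.2%. The longest coding transcript placed 90 of the 116 regions in introns, 12 upstream and 8 downstream of the gene, 3 in a 5′ UTR, 3 in a 3′ UTR and 0 in a coding exon.

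Of the 116 regions, 7 had a peak in all 4 BCAS and no sham library (6.03%), against 1.62% of all merged regions and 1.59% of those at any protein-coding locus. They are called BCAS-only regions here, a word that covers presence of a peak and nothing more. Smad3 held 3 of them, Tgfbr2 2, and Tgfb1 and Smad7 1 each. The regions at Tgfb1 and Smad7 extend beyond the end of the locus. Inside the locus, BCAS 2 had no peak in the Tgfb1 region, and the Smad7 region has its summit outside. Any overlap with a locus sufficed for a region to be counted, also for the 1.59%. The reverse, a peak in all 4 sham and no BCAS library, was found in 0 of the 116 regions and in 0.0945% of all regions. Of the tested loci, 9.77% held at least 1 BCAS-only region, but the tested locus had a median of only 4 merged regions, whereas Smad3 had 30 and Tgfbr2 24. Among the 873 tested loci with 20 to 35 regions, a bin set after these values were seen, 10.4% held 2 or more BCAS-only regions and 3.44% held 3 or more. Leaving out a single library loosens the definition of a BCAS-only region. It gave 6 to 9 such regions at the 10 loci (5.22% to 7.76%), against 1.68% to 2.35% of all merged regions.

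The 10 loci together held 59, 75, 80 and 66 peaks in the sham libraries 1 to 4 and 98, 87, 82 and 74 in the BCAS libraries 1 to 4. These counts overlapped between the groups. Per 10000 peaks of the library, the loci held 5.49, 5.65, 5.52 and 5.88 in sham and 6.10, 6.80, 6.65 and 6.19 in BCAS. On that scale every BCAS library lay above every sham library, with means of 5.64 ± 0.177 and 6.43 ± 0.342 (SD, n = 4). No p is given for these totals, since the genes were chosen with earlier results known. Of the 10 genes compared singly on the raw number of peaks, Tgfb1 alone reached an exact two-sided permutation p of 0.0286, unadjusted and the smallest this design allows, with 3, 4, 4 and 4 in sham and 6, 5, 5 and 5 in BCAS. The share of all tested genes that reach this p was not computed, so nothing is concluded from it about Tgfb1. These counts are not scaled to the library, and that of BCAS 2 includes a peak at chr7:25703845-25704100 found in no other library. Smad3 had 16, 18, 20 and 15 peaks in sham and 28, 23, 21 and 18 in BCAS (exact p = 0.0857), and Tgfbr2 had 8, 17, 17 and 16 against 21, 16, 18 and 17 (exact p = 0.286).

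**Figure D3:**
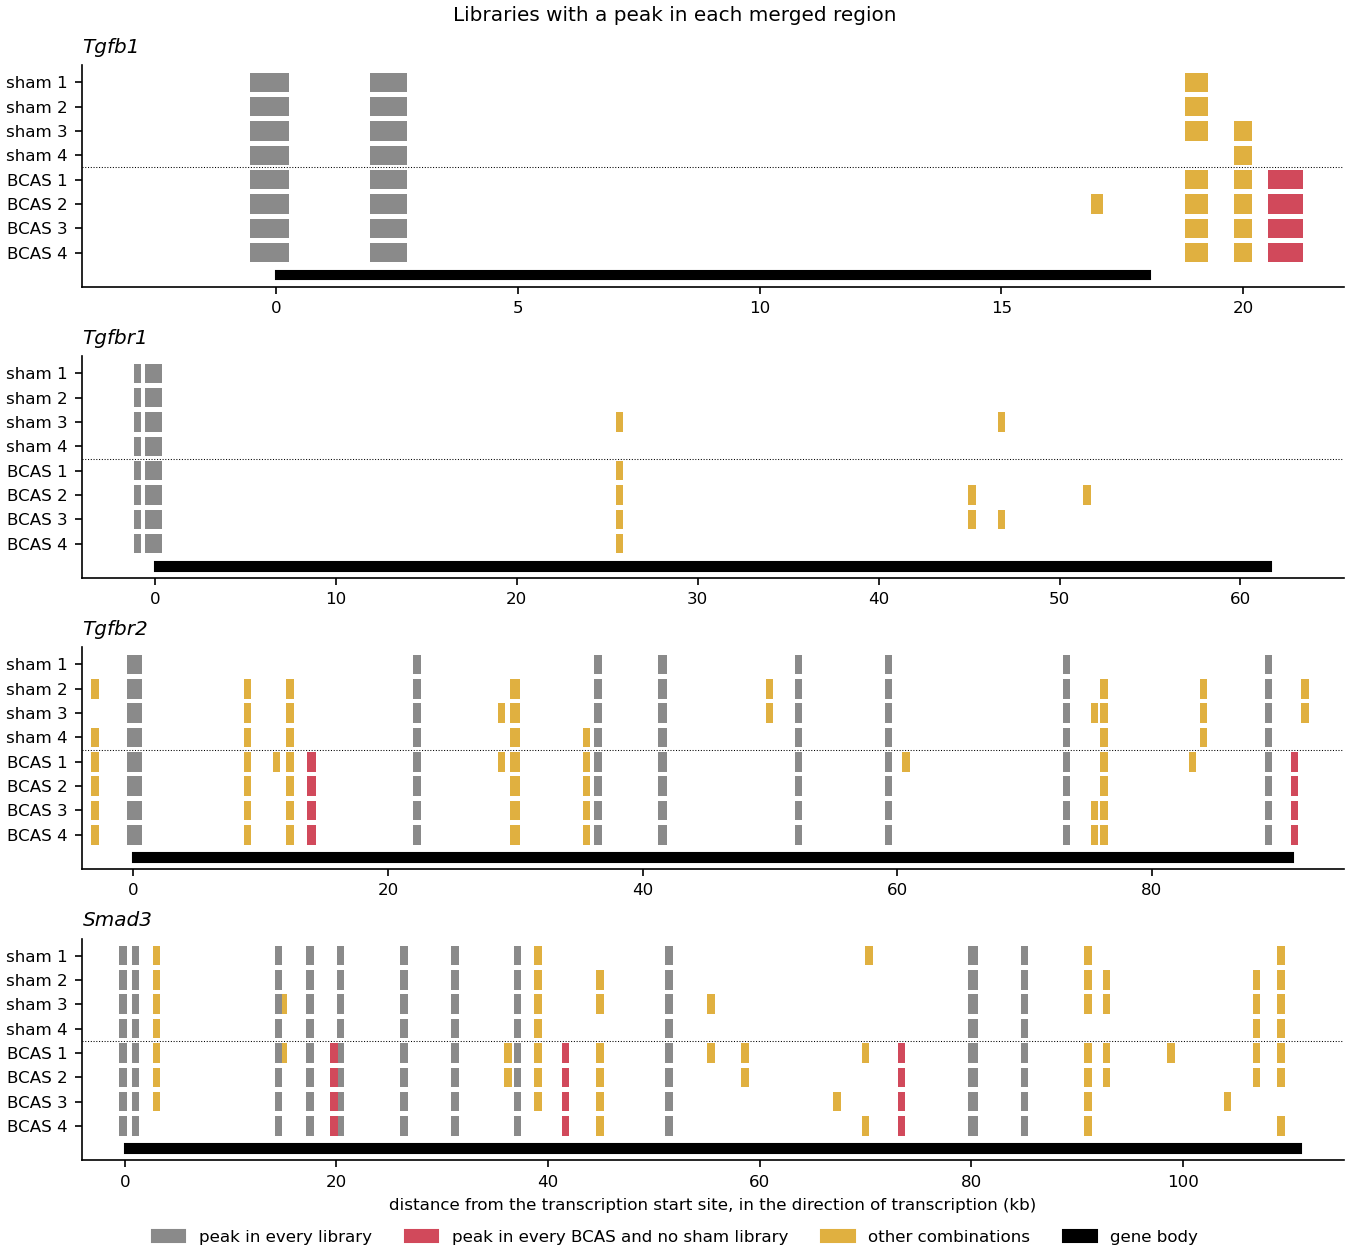
Merged regions at Tgfb1, Tgfbr1, Tgfbr2 and Smad3, plotted by distance of their summit from the transcription start site (kb, in the direction of transcription), with 1 row per library. Each block marks a peak of that library in the region; the 6 BCAS-only regions shown (red) lie at least 13955 bp from the start site, while the start sites themselves carry peaks in every library (grey).

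Tgfb1, the main TGF-β ligand of immune and vascular cells, lies at chr7:25687002-25705077 on the + strand of GRCm38 (mm10). Its scaled covered length was 1571, 1586, 1719 and 1326 bp in the sham libraries, numbered 1 to 4, and 2009, 2160, 2496 and 1776 bp in those of BCAS. All 4 BCAS libraries lay above the sham libraries, with means of 1550.4 ± 164 and 2110.3 ± 302 bp. The log2 fold change was 0.40 (SE 0.12, 95% interval 0.13 to 0.66), with an unadjusted p of 0.00525 and an adjusted p of 0.0950 in limma. The difference in covered length lay beyond the 3′ end of the gene: in the gene body alone the log2 fold change was -0.039 and in a window of 3 kb around the start site -0.086. The start site region and the region in intron 1 had peaks in every library and together differed by -75.8 bp in BCAS. In height, the intron 1 region, chr7:25688824-25689588, stood at percentiles 47.4, 59.3, 25.4 and 29.6 of fold enrichment in sham 1 to 4. It stood at 74.3, 71.2, 72.8 and 71.2 in BCAS 1 to 4, and this difference was not tested. The added length lay mostly in a run of 3 regions in the downstream flank, which had peaks in 3, 2 and 0 sham libraries and in all 4 BCAS libraries. The last of them, chr7:25707584-25708303, was BCAS-only, with peaks of 528, 200, 650 and 218 bp in BCAS 1 to 4. The locus ends inside this region, and the peak of BCAS 2 lies beyond that end, so within the locus 3 of 4 BCAS libraries had a peak. Its fold enrichments stood at percentiles 1.55, 0.698, 2.89 and 0.120 of their libraries, among the lowest peaks called. Its summit was 2799 bp beyond the transcript, and the nearest start site was that of Ccdc97 at 11212 bp. By GC content of reads, BCAS exceeded sham by 383 bp among the 4 libraries of the higher class (3 sham and 1 BCAS) and by 818 bp among the 4 of the lower class (1 sham and 3 BCAS). The locus also overlaps the gene B9d2, and a peak there cannot be assigned to either gene. The reference sequence around the summit of the BCAS-only region is shown because this region is the only BCAS-only one at a ligand. Capitals mark the CAGA box (AGNCAGAC), which SMAD3 is known to bind; it lies over 100 bp from the summit.
Tgfb1 downstream, chr7:25707726-25708025, + strand: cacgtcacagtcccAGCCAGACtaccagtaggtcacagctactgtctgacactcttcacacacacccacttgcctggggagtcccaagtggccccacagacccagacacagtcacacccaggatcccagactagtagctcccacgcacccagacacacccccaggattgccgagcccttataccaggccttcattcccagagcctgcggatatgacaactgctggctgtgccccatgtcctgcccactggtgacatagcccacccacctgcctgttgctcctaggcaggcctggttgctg

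Tgfb2, a ligand made by neurons and glia, lies at chr1:186622792-186705989 on the - strand. The scaled covered length was 3089, 2946, 2887 and 3032 bp in sham and 2522, 3526, 3213 and 3013 bp in BCAS. The BCAS values spanned the sham values on both sides (log2 fold change 0.027, 95% interval -0.20 to 0.26, adjusted p = 0.959 in limma). Of its 11 regions, 6 had peaks in every library, from the start site to intron 7, and 0 were BCAS-only.

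Tgfb3, the third ligand, lies at chr12:86056745-86079041 on the - strand, where it overlaps Ttll5. Peaks covered 1736, 1484, 1234 and 920 bp in sham and 1020, 1106, 1347 and 1313 bp in BCAS. The sham libraries differed among themselves more than the groups did (log2 fold change -0.12, 95% interval -0.45 to 0.21, adjusted p = 0.836 in limma). Only its start site and 1 region in intron 1 had peaks in every library.

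Tgfbr1, the type I receptor kinase that phosphorylates SMAD2 and SMAD3, lies at chr4:47353222-47414931 on the + strand. Over this locus the covered length was 1387, 1148, 1487 and 1427 bp in sham and 1214, 2041, 1898 and 1519 bp in BCAS. In this gene 3 BCAS libraries lay above all sham libraries and BCAS 1 did not (log2 fold change 0.24, SE 0.15, 95% interval -0.066 to 0.55, adjusted p = 0.495 in limma). BCAS differed from sham by -126 bp in the higher class of GC content of reads and by 393 bp in the lower class, and the log2 fold change was 0.093 with that class as a term, 0.60 in the gene body alone and 0.15 to 0.37 with single libraries left out. The regions at and just upstream of the start site were present in every library and made up most of the covered length. Inside the gene, the region chr4:47378768-47379069 in intron 1, 25685 bp from the start site, had peaks in all 4 BCAS libraries and in sham 3 only. Its peaks were 302, 237, 256 and 236 bp long in BCAS 1 to 4 and stood at percentiles 67.8, 29.8, 49.7 and 50.3 of fold enrichment. A region in intron 4 had peaks in 2 BCAS and no sham library. Both of these regions carried GAGGAAGT, the site of the myeloid factor PU.1, within 100 bp of the summit. The first sequence follows, with that site in capitals, since it can be set beside the sites at Tgfbr2 and Smad3.
Tgfbr1 intron 1, chr4:47378768-47379056, + strand: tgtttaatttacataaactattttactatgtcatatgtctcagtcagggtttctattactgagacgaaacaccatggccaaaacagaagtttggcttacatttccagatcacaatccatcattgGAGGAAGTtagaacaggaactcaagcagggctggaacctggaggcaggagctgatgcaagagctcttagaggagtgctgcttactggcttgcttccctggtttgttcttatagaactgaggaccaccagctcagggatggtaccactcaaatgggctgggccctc

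Tgfbr2, the type II receptor that binds the ligand first, lies at chr9:116084293-116175360 on the - strand. Peaks covered 3408, 5157, 5486 and 6435 bp in sham and 6176, 5987, 6733 and 6846 bp in BCAS. Sham 4 lay within the BCAS range and sham 1 far below the other libraries, with means of 5122 ± 1264 and 6435.4 ± 418 bp. The log2 fold change was 0.35 (SE 0.14, 95% interval 0.059 to 0.64), with an unadjusted p of 0.0214 and an adjusted p of 0.210 in limma. Sham 1 held only 8 peaks at the locus, and 4 regions lacked a peak in sham 1 alone. Without sham 1, the log2 fold change was 0.18 (adjusted p = 0.480). BCAS exceeded sham by 1492 bp in the higher class of GC content of reads and by 86.6 bp in the lower class, and with that class as a term in limma the log2 fold change was 0.21 (adjusted p = 0.571). The locus passed the threshold with peaks of -log10 q of at least 5 (log2 fold change 0.59, adjusted p = 0.0179) and without sham 4 (0.47, adjusted p = 0.0497).

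Of the 24 regions at Tgfbr2, 12 had peaks in more BCAS than sham libraries, 3 in more sham libraries and 9 in equal numbers. BCAS-only regions were chr9:116084018-116084317, 127 bp beyond the 3′ end, and chr9:116160852-116161553 in intron 1, 13955 bp from the start site. The first had peaks of 224, 258, 255 and 217 bp in BCAS 1 to 4, at percentiles 29.1, 34.3, 42.3 and 28.4 of fold enrichment. The second had peaks of 644, 222, 531 and 200 bp, at percentiles 23.2, 33.9, 25.1 and 19.9, so both were below the middle of their libraries in height. A region of intron 2, chr9:116139620-116139935, had peaks in all 4 BCAS libraries and in sham 4. In the opposite direction, chr9:116091163-116091422 in intron 7 had peaks in sham 2, 3 and 4 and in no BCAS library. The stretches of the first 3 regions outside exons are shown because they carry the presence difference at the receptor; capitals mark GAGGAAGT (PU.1) and CNGGAAGT (ETS family), each on either strand, and a sequence in lower case throughout held none of the 7 motifs searched.
Tgfbr2 downstream, chr9:116084018-116084292, + strand: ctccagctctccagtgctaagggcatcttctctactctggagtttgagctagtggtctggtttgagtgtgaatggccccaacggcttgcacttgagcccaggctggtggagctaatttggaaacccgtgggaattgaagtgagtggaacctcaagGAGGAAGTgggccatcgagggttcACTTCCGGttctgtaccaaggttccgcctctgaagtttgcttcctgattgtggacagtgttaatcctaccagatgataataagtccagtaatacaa
Tgfbr2 intron 2, chr9:116139638-116139935, + strand: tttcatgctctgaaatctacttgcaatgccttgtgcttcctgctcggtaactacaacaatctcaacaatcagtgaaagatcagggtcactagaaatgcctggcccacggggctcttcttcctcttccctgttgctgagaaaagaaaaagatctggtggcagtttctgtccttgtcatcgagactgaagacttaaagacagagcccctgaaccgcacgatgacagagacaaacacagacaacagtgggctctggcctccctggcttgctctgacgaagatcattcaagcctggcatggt
Tgfbr2 intron 1, chr9:116161255-116161553, + strand: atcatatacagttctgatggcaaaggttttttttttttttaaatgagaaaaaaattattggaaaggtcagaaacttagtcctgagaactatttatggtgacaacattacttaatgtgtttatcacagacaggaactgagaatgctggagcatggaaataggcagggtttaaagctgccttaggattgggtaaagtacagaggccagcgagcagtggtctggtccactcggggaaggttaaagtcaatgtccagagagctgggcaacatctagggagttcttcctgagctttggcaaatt

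Smad3, the transducer that binds DNA directly, lies at chr9:63646767-63757994 on the - strand, with Aagab overlapping the locus at its 3′ end. The covered length at Smad3 was 6752, 6859, 6936 and 6554 bp in sham and 8190, 7996, 7721 and 7669 bp in BCAS. Every BCAS library lay above every sham library, and the spread within each group was small (means 6775 ± 166 and 7894 ± 244 bp). The log2 fold change was 0.21 (SE 0.073, 95% interval 0.059 to 0.37), with an unadjusted p of 0.00961 and an adjusted p of 0.132 in limma. Leaving out any 1 library gave log2 fold changes of 0.20 to 0.23. The difference was 1341 bp among the libraries with higher GC content of reads and 1241 bp among those with lower GC content. The start site region was present in every library with a rank of 84.6 ± 0.698 in sham and 85.3 ± 3.18 in BCAS.

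Intron 1 of Smad3 holds all 3 of its BCAS-only regions. They were chr9:63684331-63684695, chr9:63716137-63716479 and chr9:63737986-63738356, at 73447, 41685 and 19791 bp from the start site. The first had peaks of 286, 255, 361 and 258 bp in BCAS 1 to 4, at percentiles 66.2, 66.0, 77.9 and 41.9 of fold enrichment. The second had peaks of 337, 313, 335 and 286 bp, at percentiles 53.3, 70.9, 59.9 and 35.3. Both stood above the middle of the library in BCAS 1, 2 and 3, and below it in BCAS 4. The third, with 255, 248, 274 and 367 bp, stood at percentiles 34.6, 18.4, 37.5 and 28.7. Smad3 held 3 BCAS-only regions also under each alternative of merging, peak threshold and list length. It held 3 with any library left out too, but an omission cannot lower a count unless the merged region itself changes. The counts at other genes varied. Tgfb1 had 0 with lists of equal length and without BCAS 3. Tgfbr2 had 1 with lists of equal length and 3 with peaks of -log10 q of at least 5 or without sham 4. Smad7 had 2 with lists of equal length or without sham 3, and Tgfbr1 had 1 without sham 3. The Smad3 sequences are shown because Smad3 held the most BCAS-only regions of the 10 genes. Capitals mark GAGGAAGT (PU.1), TGTGGTT (RUNX) and TGANTCA (AP-1) on either strand.
Smad3 intron 1, 73447 bp, chr9:63684397-63684695, + strand: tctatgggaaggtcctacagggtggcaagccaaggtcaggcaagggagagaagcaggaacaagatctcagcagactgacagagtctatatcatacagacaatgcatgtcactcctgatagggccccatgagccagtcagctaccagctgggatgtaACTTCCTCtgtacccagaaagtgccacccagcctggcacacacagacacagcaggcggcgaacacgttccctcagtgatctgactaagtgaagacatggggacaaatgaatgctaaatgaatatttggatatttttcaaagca
Smad3 intron 1, 41685 bp, chr9:63716159-63716458, + strand: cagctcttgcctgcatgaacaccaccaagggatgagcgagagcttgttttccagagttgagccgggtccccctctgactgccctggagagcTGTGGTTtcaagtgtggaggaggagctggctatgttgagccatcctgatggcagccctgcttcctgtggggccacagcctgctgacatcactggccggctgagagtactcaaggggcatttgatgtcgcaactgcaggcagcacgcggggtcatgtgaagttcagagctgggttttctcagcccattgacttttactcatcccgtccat
Smad3 intron 1, 19791 bp, chr9:63738053-63738352, + strand: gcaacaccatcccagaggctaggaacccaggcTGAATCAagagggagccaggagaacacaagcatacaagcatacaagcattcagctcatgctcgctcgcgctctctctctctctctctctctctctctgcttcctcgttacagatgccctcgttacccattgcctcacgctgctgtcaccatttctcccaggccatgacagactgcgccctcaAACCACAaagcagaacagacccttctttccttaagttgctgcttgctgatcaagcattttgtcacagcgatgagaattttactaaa

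The PU.1 site GAGGAAGT was searched on both strands within 100 bp of every region's summit, together with 6 other motifs. It was found at 5 of the 116 regions. In 2 of these, at Smad3 and Tgfbr2, the region was BCAS-only, in 2 at Tgfbr1 it had peaks in more BCAS than sham libraries, and the other was a single-library region at Tgfb3. None of the 44 regions with a peak in every library held it. Over all merged regions, 2.89% held the site, with 15.6% of BCAS-only regions and 1.99% of regions present in every library. RUNX (TGTGGTT) was found at 10 member regions, 2 of them BCAS-only. It was found at 4.50% of all regions and 8.30% of all BCAS-only regions. ETS (CNGGAAGT), which differs from GAGGAAGT in its first letter, was found at 11 member regions, 1 of them BCAS-only. Its shares were 4.76% of all regions and 10.9% of all BCAS-only regions. AP-1 (TGANTCA) was found at 14 and 15.1%, the CAGA box (AGNCAGAC) at 9 and 5.36%, and an IRF motif at 2 and 2.63%. No BCAS-only region at the 10 genes had AP-1, the CAGA box or IRF within 100 bp of its summit. Over all BCAS-only regions these shares were 11.2%, 7.17% and 4.52%, so absence among 7 regions says little about these genes. The palindromic SMAD element GTCTAGAC was found at 0 member regions and 0.212% of all. A match is a run of letters and does not show binding.

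Smad2, the other receptor-regulated transducer, lies at chr18:76241580-76310963 on the + strand. Peaks covered 2579, 2480, 2228 and 2344 bp in sham and 2480, 2912, 2619 and 2257 bp in BCAS. The groups overlapped (log2 fold change 0.082, 95% interval -0.15 to 0.31, adjusted p = 0.842 in limma). It held 6 regions, of which 0 were BCAS-only. Smad3 held 3 among 30 regions, so the counts rest on unlike numbers of regions, and the difference between these genes was not tested.

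Smad7, the inhibitor that the pathway induces, lies at chr18:75367529-75395935 on the + strand. The covered length at Smad7 was 3213, 2654, 2882 and 2730 bp in sham and 3192, 3277, 3247 and 2855 bp in BCAS. Sham 1 lay among the BCAS libraries (log2 fold change 0.12, SE 0.10, 95% interval -0.089 to 0.34, adjusted p = 0.671 in limma). Its 12 regions moved in both directions, with 6 found in more BCAS and 3 in more sham libraries. A BCAS-only region, chr18:75398864-75399130, had its summit 3069 bp beyond the transcript, just outside the locus. Only 54.2, 26.5, 53.1 and 77.8 scaled bp of its peaks in BCAS 1 to 4 lay inside. A region of intron 2, chr18:75371448-75371746, had peaks in all 4 BCAS libraries and in sham 3. Upstream, chr18:75364358-75364676 had peaks in all 4 sham libraries and in BCAS 1 only, at percentiles of fold enrichment of 0.119 to 2.49.

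Nrros, which anchors latent TGF-β on microglia, lies at chr16:32142785-32165594 on the - strand. Its covered length was 2218, 2110, 1837 and 2252 bp in sham and 1769, 1695, 2382 and 1784 bp in BCAS. Here 3 BCAS libraries lay below all sham libraries and BCAS 3 above them (log2 fold change -0.14, SE 0.12, 95% interval -0.40 to 0.12, adjusted p = 0.718 in limma). Its region in intron 2, chr16:32149111-32149719, carried some of the highest peaks at any of the 10 loci, at percentiles of 90.5 or higher in 7 libraries and of 74.3 in BCAS 4. It held 0 BCAS-only regions among 7.

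Itgb8, the integrin subunit that takes part in activation of latent TGF-β, lies at chr12:119158022-119238802 on the - strand. Its covered length was 4148, 4171, 4026 and 4256 bp in sham and 4244, 4156, 3934 and 4146 bp in BCAS. The values overlapped closely (log2 fold change -0.010, SE 0.086, 95% interval -0.19 to 0.17, adjusted p = 0.979 in limma). Of its 9 regions, 5 had peaks in every library and 8 were found in equal numbers of sham and BCAS libraries.

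The difference in covered length was also split by the kind of region. The kinds are set by which libraries had a peak, so BCAS-only regions can only add length in BCAS, and the split is a description that tests nothing. Over the 10 loci, the difference of BCAS minus sham was -597 bp in regions with a peak in every library, 1795 bp in BCAS-only regions and 2238 bp in all other regions. At Tgfbr2 the parts were -131, 613 and 832 bp, and at Tgfb1 -75.8, 248 and 388 bp. At Smad3 they were -16.7, 882 and 254 bp, and at Tgfbr1, which had no BCAS-only region, -120 bp in regions of every library and 426 bp in the others. The split leaves out height, and several regions with a peak in every library stood higher in all BCAS libraries. In intron 1 of Smad3, chr9:63706203-63706776 stood at percentiles 9.37 to 50.7 of fold enrichment in sham and 73.3 to 85.4 in BCAS. The reverse was seen at chr9:63677550-63678503, with 87.2 to 91.3 in sham and 75.5 to 85.5 in BCAS. Heights outside start sites were not tested.

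**Figure D4:**
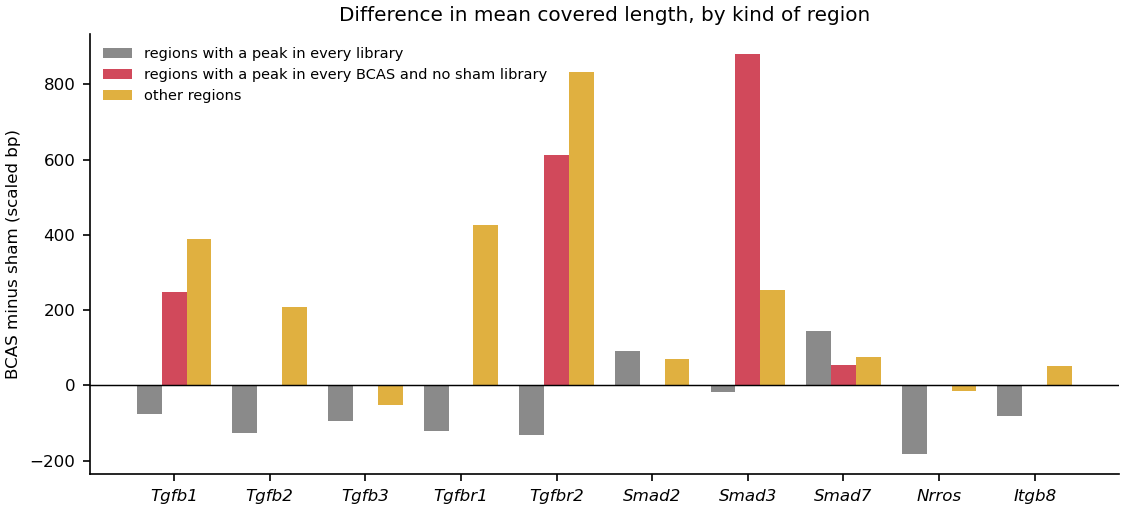
Difference in mean scaled covered length, BCAS minus sham (bp), at each locus, split into regions with a peak in every library (grey), BCAS-only regions (red) and other regions (yellow). The red bars reach 882 bp at Smad3 and 613 bp at Tgfbr2, while the grey bars lie below 0 at 8 of the 10 loci; red bars cannot be negative, as these regions had no sham peak.

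A further 73 genes of the pathway were grouped by role, and 72 of them could be tested. In limma 2 of the 72 rose and 0 fell, near the 3.16% and 0.376% of all tested genes. They were Tgfbi, a matrix protein induced by TGF-β, and Gpr34, a microglial receptor whose gene lies within Cask. At an unadjusted p under 0.05, 16 of the 72 were higher and 5 lower, where 10.6% and 4.39% of all tested genes were. The fold change was above 0 at 46 of the 72, and its median was 0.091. Tgfbi covered 705, 693, 804 and 1281 bp in sham and 1520, 1653, 1373 and 1720 bp in BCAS, without overlap (log2 fold change 0.75, SE 0.16, adjusted p = 0.0118). Gpr34 covered 0, 193, 223 and 0 bp in sham and 539, 677, 452 and 654 bp in BCAS, also without overlap (1.44, SE 0.30, adjusted p = 0.0108). Its mean was 104 bp in sham and 580 bp in BCAS, so the locus reached the minimum of 200 bp for testing only through the BCAS libraries. A peak at Gpr34 may equally be counted to Cask.

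By role, 0 of 9 genes that handle latent TGF-β, 0 of 8 other ligands, 0 of 11 other receptors, 0 of 6 other SMADs and anchors and 0 of 13 inhibitors passed the adjusted threshold, with 2, 1, 2, 1 and 2 higher and 0, 2, 1, 2 and 0 lower at an unadjusted p under 0.05. Their median log2 fold changes were 0.11, -0.20, 0.027, -0.066 and 0.054. Of 12 tested target genes, Tgfbi alone passed, and the median was 0.095. The list of microglial identity genes that depend on TGF-β held 13 genes, 6 of them also on the list of microglial markers, and had the highest median of the 7 lists. All 13 had a fold change above 0, 7 had an unadjusted p under 0.05 (10.6% of all tested genes were higher at that p), 1 passed the adjusted threshold (Gpr34, against 3.16% of all), and the median was 0.36, against 0.0014 over all. Within that list, Tmem119 covered 233 ± 164 bp in sham and 550.1 ± 75.6 bp in BCAS (log2 fold change 0.89, adjusted p = 0.109), and Fcrls 721 ± 212 and 1165 ± 124 bp (0.59, adjusted p = 0.0597). Outside it, the largest values that missed the threshold were those of the ligand Gdf11 (0.87, adjusted p = 0.304), the endothelial co-receptor Eng (0.47, adjusted p = 0.0910) and the ligand Bmp4 (-0.58, adjusted p = 0.0995). Gdf11 covered 0, 1043, 594 and 1004 bp in sham and 878, 1092, 1359 and 1023 bp in BCAS, so its value leans on sham 1, which had no peak there. Eng overlaps Fpgs and Bmp4 overlaps Gm15217 in the annotation, so peaks there cannot be assigned to 1 gene.

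**Figure D5:**
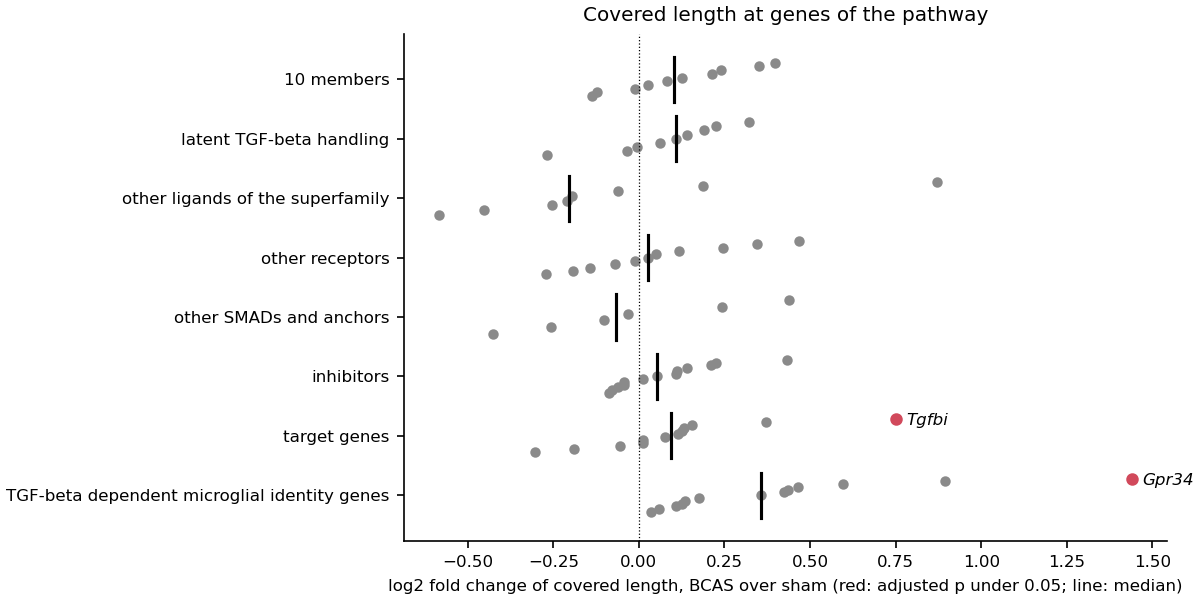
Log2 fold change of covered length in BCAS over sham for the 10 genes and for 7 lists of other pathway genes, with 1 point per gene, red where the adjusted p was under 0.05 and a line at each median. Only Tgfbi and Gpr34 passed, and all 13 genes of the microglial identity list lie above 0.

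Markers of cell types were measured in the same way, and Trem2 alone passed the adjusted threshold. All 10 microglial markers had a fold change above 0 (median 0.29), and their summed covered length was 19.7 to 25.2 kb in sham and 24.2 to 27.4 kb in BCAS. Endothelial markers summed to 13.6 to 16.5 kb in sham and 17.6 to 19.1 kb in BCAS, with 0 of 7 genes past the threshold, 4 of 7 fold changes above 0 and a median of 0.11. Flt1 accounted for most of the difference in that sum, with 4618, 4832, 4851 and 1657 bp in sham and 6028, 6112, 6143 and 5040 bp in BCAS. The log2 fold changes of Pecam1, Slc2a1 and Tek were 0.32, 0.32 and 0.11, and those of Cldn5, Cdh5 and Emcn -0.12, -0.10 and -0.20. Of 8 markers of border macrophages and monocytes, 3 could be tested and 0 passed, with sums of 2.27 to 3.06 kb and 2.74 to 3.32 kb, and Ms4a7, Ccr2, Ly6c2 and Plac8 had no peak in any sham library. Of 8 lymphocyte markers, 2 could be tested and 0 passed, with sums of 0.970 to 1.72 kb and 2.35 to 2.58 kb, and Cd3e, Cd3d, Cd8a, Ms4a1 and Nkg7 had no peak in sham. None of the markers of astrocytes, oligodendrocytes, their precursors, mural cells and fibroblasts, excitatory neurons and inhibitory neurons passed the threshold; among them Sst and Lum had no peak in any library and Vip had one only in BCAS 3. The part of the cell types in the values at Tgfb1, Tgfbr2, Smad3 and the microglial list was not tested.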

How the data were processed

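Nuclei of mouse cortex were profiled by ATAC-seq, with 1 library from each of 4 sham and 4 BCAS mice. The authors aligned paired reads to mm10 with Bowtie2 2.3.4.3, removed duplicates with SAMtools 1.9 and ran MACS2 peak calling library by library, per the study's methods and processing notes. FastQC, Trim Galore and DiffBind are also named there. For the MACS2 options and any shift for the Tn5 cut, the sources used here give nothing. The deposited peak lists give positions, a display score, fold enrichment over background as a ratio, −log10 p and −log10 q, and no read counts.

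Loci were taken from GENCODE vM21, and sequences from RefSeq's GRCm38 assembly. Covered length was the union of peaks inside the locus, scaled to the same covered total in each library and tested as log2(length + 200 bp) with limma 3.58.1 in R 4.3.3 over 17035 protein-coding genes, those whose mean over the libraries reached 200 bp. P-values were adjusted by the Benjamini-Hochberg method over all of them, with a threshold of 0.05. Fold changes are on that scale and understate changes of short lengths. Peaks were merged from 1 bp of overlap. Python 3.11.15, numpy 2.4.6, pandas 2.3.3, scipy 1.17.1 and pysam 0.24.0 were used. Single counts were compared by exact two-sided permutation over the 70 divisions of the libraries. The fit was tested on simulated data. The class of GC content of reads was taken from the study's quality table.

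The 10 genes, the pathway and marker lists and the named genes (all 10 members, every other pathway gene past the threshold and the 5 others with the largest fold change) were chosen with earlier results of these data known, and the motifs after the regions were seen. RefSeq promoter entries matched the genome at 8 of 8 entries of the members. Col1a2 fell below the minimum, and Ctgf was read as Ccn2. Replicate numbers did not pair the mice. Alternatives were other pseudocounts, minimum, scaling, peak threshold, equal list lengths, windows, covariates, a replicate block, merging rules and each library left out.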

Additional observations from a re-analysis of the deposited data

Results flagged for a closer look

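Of 60 groups of 4 libraries examined (covered length, number of peaks and start site rank at the 10 loci, in each group), 9 had 1 library far from the other 3, where chance gives about 1 in 20; numbers of peaks are small whole numbers with ties, which makes such gaps frequent. The measure is the gap of the extreme library to its neighbour over the range of the group. It was 1.0 for the number of peaks at Tgfb1 in sham (3 against 4 in each of the others) and in BCAS (6 against 5), at Tgfb2 in sham (7 against 6), at Tgfbr1 in sham (4 against 2), at Smad7 in sham (7 against 6), and at Nrros in sham (5 against 4) and in BCAS (3 against 5). At Tgfbr2 it was 0.889 in sham, where sham 1 had 8 peaks and the others 16 or 17. For scaled covered length it was 0.87 at Nrros in BCAS, where BCAS 3 had 2382 bp and the others 1695 to 1784 bp.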

How the results depend on the processing

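Of 190 fits of the 10 genes under alternatives, 174 kept the direction and the side of the threshold, 13 reversed the sign without passing it, and 3, all of Tgfbr2, passed it. Tgfbr2 passed with peaks of −log10 q of at least 5 (0.59), with a replicate block (0.35, adjusted p = 0.0437) and without sham 4; leaving out single libraries gave 0.18 to 0.47, so that 0 to 1 of the 10 genes passed, against 1 under each of the other 2 alternatives named and 0 under the rest. In a window of 3 kb around the start site the log2 fold change was -0.086 at Tgfb1, -0.26 at Tgfb2, -0.12 at Tgfbr1, -0.014 at Tgfbr2 and -0.089 at Smad7. In the gene body without flanks it was -0.039 at Tgfb1 and 0.091 at Tgfb3. It was 0.075 at Itgb8 without scaling, -0.023 at Smad2 with lists of equal length and -0.065 at Tgfb2 with the GC class as a covariate. Leaving out single libraries gave -0.024 to 0.011 at Itgb8 and -0.039 to 0.11 at Tgfb2. The cause of these changes was not tested.

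The count of other pathway genes that rose was 2, and 4 with lists of equal length, 4 in the gene body, 7 with the replicate block and 2 to 5 with single libraries left out. Over all genes, 222 rose and 1 fell without scaling, 184 and 6 in the window around the start site and 245 and 8 with the GC class as a covariate, while 160 fell with the replicate block. Leaving out single libraries gave 284 to 666 higher and 25 to 90 lower genes. At 2 alternatives, peaks of −log10 q of at least 5 and lists of equal length, 1 region was found in all sham and no BCAS libraries at the 10 loci, and 0 to 1 with single libraries left out. BCAS-only regions at these loci numbered 6 to 9 (5.22% to 7.76%), against 1.61% to 2.35% of all merged regions. The rank of the start site peak gave 0 calls under each alternative.

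The replicate block did not rest on a pairing: same-numbered libraries correlated at -0.160, -0.0109, -0.0967 and 0.138, and not every library correlated best with its own number. Without read counts, the depth behind a peak is unknown. With 4 libraries in each group, the exact permutation test cannot give a p below 0.0286.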
